A study of Mus musculus with 8 samples.

Results

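The apelin receptor gene and 4 other genes, grouped as vascular, are described here in pressure-overloaded mouse hearts. The genes are Aplnr for the receptor, Apln, which encodes apelin itself, and Myct1, Hlx and St8sia4. They are 5 of the 56748 genes in the deposited count table, and all 5 were among the 16002 genes with enough reads to test. The set was chosen from the values themselves, because every library from CS7KO hearts lay below every library from CRE hearts, with Apln added as the ligand of Aplnr. Their difference between the genotypes is therefore given as a description, with no test. Apln goes against the rule: its libraries overlapped, so "strongly reduced" holds for 4 of the 5 genes.

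CRE hearts, the controls, came from mice whose Cre recombinase is expressed in cardiomyocytes from the alpha myosin promoter (alpha-MHC). CS7KO hearts came from mice in which that same Cre had removed Smad7, an inhibitor of TGF-beta receptor signalling, from cardiomyocytes. Both groups had carried a surgical band on the transverse aorta, which loads the left ventricle with pressure, for 56 days. The labels give the background as C56BL, the age as 3 to 4 months and both sexes, and there are 4 whole-heart libraries per genotype. The labels number them as samples and do not say outright that each is a separate mouse, so p-values measure the spread between these libraries. The Cre is directed at cardiomyocytes. Aplnr, Apln and Myct1 are known from endothelial cells, and may be made in other cells as well, cardiomyocytes included. Hlx and St8sia4 are known from several tissues, blood cells among them. Whole-heart RNA mixes all of these, and in such samples fewer cells of a type and less RNA per cell cannot be told apart.

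Apelin is a secreted peptide cut from a precursor. It acts on Aplnr, a G protein-coupled receptor known from endothelial cells that signals through inhibitory G proteins and arrestins. In growing vessels the ligand is made by tip cells that lead the sprout. Myct1 encodes a small membrane protein, first described as a target of the Myc oncoprotein, that is known from endothelial and blood-forming cells. Hlx encodes a homeobox transcription factor needed for liver and gut growth in the mouse and linked in human endothelial cells to the restraint of sprouting. St8sia4 encodes a Golgi enzyme that builds polysialic acid, a long chain of sialic acids, on carrier proteins such as Ncam1 and Nrp2.

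In the deposited table Aplnr (ENSMUSG00000044338) spans 84966569 to 84970267 of chromosome 2, plus strand. Apln (ENSMUSG00000037010) spans 47114023 to 47123730 of chromosome X, minus strand. Myct1 (ENSMUSG00000046916) spans 5543775 to 5556904 of chromosome 10, plus strand. Hlx (ENSMUSG00000039377) and St8sia4 (ENSMUSG00000040710) share chromosome 1, from 184459337 to 184464816 and from 95515407 to 95595296, both on the minus strand. These spans differ from GENCODE M21, an annotation of GRCm38, in all 5 cases, and the table names no build, so the build of these positions is unsettled. No other gene of the table overlapped Aplnr, Apln, Myct1 or Hlx. St8sia4 overlapped Gm37642 on the same strand, which had 6 counts over all 8 libraries.

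The promoters of Myct1, Hlx and St8sia4 are shown because these genes were low in the same libraries, beside that of Apln, which was not. Aplnr is described without one. Each runs from 250 bases before to 50 bases after the annotated start in RefSeq, build GRCm38.p6, is written 5′ to 3′ on the strand of the gene, and has every motif match in capitals. The windows are chr10:5593478-5593777 on the plus strand for Myct1, chr1:184732444-184732743 on the minus strand for Hlx, chr1:95667545-95667844 on the minus strand for St8sia4 and chrX:48034804-48035103 on the minus strand for Apln.
Myct1: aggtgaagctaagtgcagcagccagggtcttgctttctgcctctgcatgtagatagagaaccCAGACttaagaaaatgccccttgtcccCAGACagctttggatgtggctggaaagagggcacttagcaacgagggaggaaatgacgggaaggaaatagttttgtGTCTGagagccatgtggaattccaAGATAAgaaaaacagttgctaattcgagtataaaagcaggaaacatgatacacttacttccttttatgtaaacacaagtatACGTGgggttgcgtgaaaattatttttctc
Hlx: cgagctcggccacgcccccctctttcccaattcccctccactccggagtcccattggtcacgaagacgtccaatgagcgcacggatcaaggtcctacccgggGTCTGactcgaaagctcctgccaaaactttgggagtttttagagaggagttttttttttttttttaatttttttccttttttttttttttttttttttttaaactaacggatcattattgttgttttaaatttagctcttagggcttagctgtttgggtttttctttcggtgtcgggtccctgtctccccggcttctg
St8sia4: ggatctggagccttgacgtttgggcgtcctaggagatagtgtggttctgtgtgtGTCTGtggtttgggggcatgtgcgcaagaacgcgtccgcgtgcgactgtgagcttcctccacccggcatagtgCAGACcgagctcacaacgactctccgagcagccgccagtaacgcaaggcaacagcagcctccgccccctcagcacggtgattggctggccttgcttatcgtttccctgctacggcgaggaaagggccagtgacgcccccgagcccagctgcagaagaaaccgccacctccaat
Apln: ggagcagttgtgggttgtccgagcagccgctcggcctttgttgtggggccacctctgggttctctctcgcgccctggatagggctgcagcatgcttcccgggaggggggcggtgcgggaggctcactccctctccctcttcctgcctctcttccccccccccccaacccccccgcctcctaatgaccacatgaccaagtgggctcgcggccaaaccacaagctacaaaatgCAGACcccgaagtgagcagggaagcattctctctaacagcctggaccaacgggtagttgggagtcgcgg
The letters searched on both strands were CGGAAG for ETS factors, CACGTG for the E-box, ACGTG for the hypoxia response core, GTCTAGAC and CAGAC for Smads, the interferon response element, and AGATAA for GATA factors. A CACGTG match also counts as ACGTG. Each of the 4 windows held CAGAC, with 3 matches in Myct1, 2 in St8sia4 and 1 each in Hlx and Apln, against at least 1 match in 49.6% of the 32851 RefSeq promoters of that length. Myct1 also held 1 ACGTG (19.6% of promoters) and 1 AGATAA (11.2%). None of the 4 windows held CGGAAG (16.9%), CACGTG (7.15%), GTCTAGAC (0.213%) or the interferon response element (3.44%). The windows of Apln and St8sia4 were rich in G and C (64.0% and 61.3%), and those of Myct1 and Hlx less so (43.3% and 44.3%).

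Aplnr, the receptor, was the steadiest of the genes in the control hearts under the scaling used here. Its level in CPM (read counts scaled to a common library size, by TMM) was 34.4, 30.6, 35.7 and 34.6 for CRE 1, 2, 3 and 5, against 7.12, 12.003, 3.86 and 7.16 for CS7KO 1 to 4. The CRE values lay close together, with a coefficient of variation of 6.63%, while those of CS7KO varied by 44.5%, with CS7KO 2 highest and CS7KO 3 lowest. The closeness in CRE depends on the TMM factors, which were 1.05, 1.25, 0.955 and 0.502 for CRE 1, 2, 3 and 5. Scaled by plain total counts, the lowest CRE library had 17.4 CPM of Aplnr. The means were 33.8 ± 2.24 and 7.54 ± 3.36 CPM (SD, n = 4 each), and the fitted difference of CS7KO over CRE was -2.22 on the log2 scale (SE 0.33), or 4.65-fold lower. The lowest CRE library was 2.55 times the highest CS7KO library.

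Apln, the ligand, behaved otherwise. Its CPM was 3.93, 5.21, 2.16 and 7.62 for CRE 1, 2, 3 and 5, against 3.08, 2.18, 7.06 and 2.01 for CS7KO 1 to 4. The groups overlapped over most of their range, with CS7KO 3 near the highest CRE library and CRE 3 near the lowest CS7KO library. Their means were 4.73 ± 2.30 and 3.58 ± 2.36 CPM (SD, n = 4 each), with a log2 difference of -0.44 (SE 0.55) and a 95% interval from -1.67 to 0.79. CS7KO 3 had the highest Apln of its group and the lowest Aplnr of all 8 libraries.

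Myct1 showed the largest fitted difference of the 5 genes. Its CPM read 53.1, 34.5, 81.0 and 90.9 for CRE 1, 2, 3 and 5, against 7.88, 14.7, 12.7 and 11.2 for CS7KO 1 to 4. On the TMM scale CRE 3 and CRE 5 were the high libraries and CRE 2 the low one, which was still 2.35 times the highest CS7KO library. The means were 64.9 ± 25.8 and 11.6 ± 2.86 CPM (SD, n = 4 each), with a log2 difference of -2.40 (SE 0.32), or 5.28-fold lower in CS7KO.

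Hlx, the homeobox factor, had a CPM of 16.9, 13.2, 16.8 and 32.7 for CRE 1, 2, 3 and 5, against 3.50, 5.25, 4.93 and 4.59 for CS7KO 1 to 4. On the TMM scale CRE 5 lay well above the other CRE libraries, and the CS7KO libraries were close to each other (coefficient of variation 16.7%, against 43.8% in CRE). Its means were 19.9 ± 8.70 and 4.57 ± 0.764 CPM (SD, n = 4 each), with a log2 difference of -2.07 (SE 0.33).

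St8sia4, the polysialyltransferase, had a CPM of 17.8, 25.8, 42.6 and 33.1 for CRE 1, 2, 3 and 5, against 6.28, 7.48, 8.52 and 5.93 for CS7KO 1 to 4. CRE 1 was its low control library and CRE 3 its high one. The means were 29.8 ± 10.6 and 7.05 ± 1.18 CPM (SD, n = 4 each), with a log2 difference of -2.03 (SE 0.29). It was the gene nearest to the threshold of the rule, its lowest CRE library being 2.09 times its highest CS7KO library, while Apln lay outside with a ratio of 0.306.

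**Figure D1:**
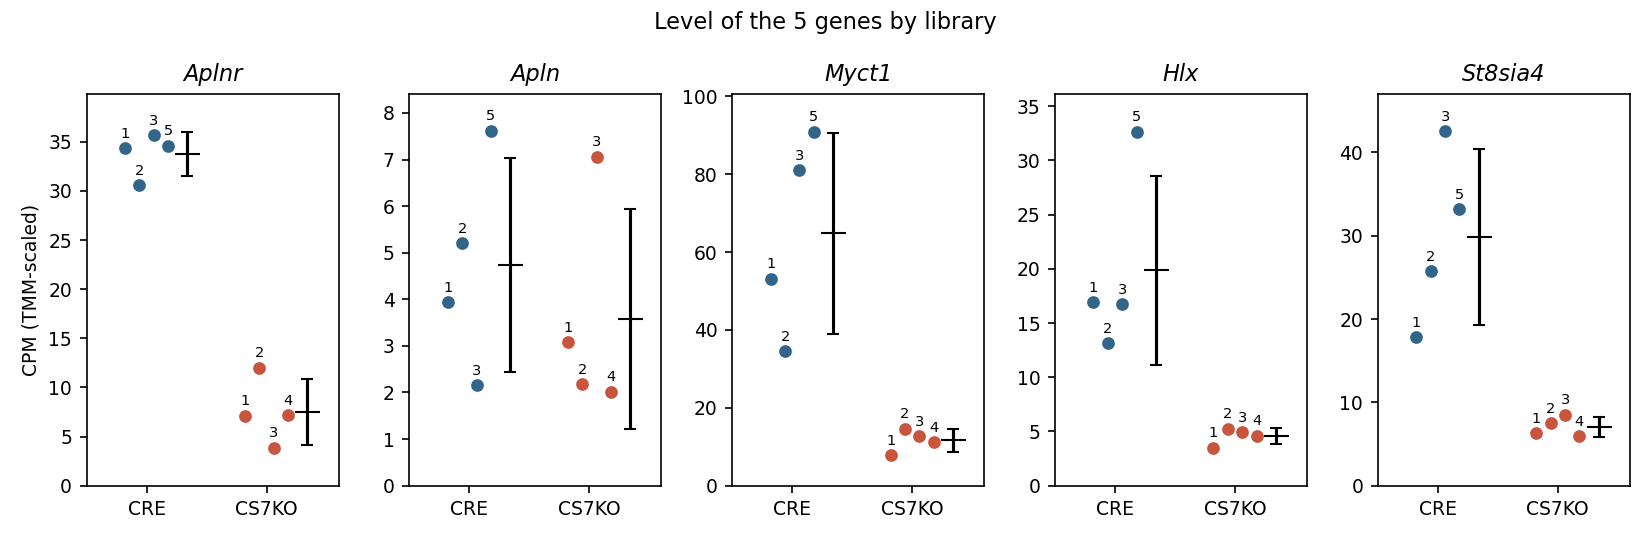
Level of each of the 5 genes in CPM (vertical axes, each from 0) in the 4 CRE (blue) and 4 CS7KO (red) libraries, with points numbered by replicate and black bars for the mean ± SD. In Aplnr, Myct1, Hlx and St8sia4 every CS7KO point lies below every CRE point, while those of Apln overlap.

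Among all 16002 tested genes, 657 (4.11%) had every CS7KO library below every CRE library and 998 (6.24%) the reverse. Of the 657, 574 were protein-coding with a mean of at least 1 CPM, and 43 of these had a log2 difference of -2 or lower, the 4 genes among them. Within the 43, 19 genes stood at or below Myct1 and 27 at or below Aplnr. At an edgeR adjusted p under 0.05, 6 genes of the whole table passed (0.0375%), 3 higher and 3 lower. The 5 genes hold none of these, 4 of the DESeq2 calls (3.14% of all genes) and 1 of the limma-voom calls (0.0312%), from which nothing is read because the same contrast chose them. The 4 genes stayed separated by genotype when libraries were scaled by TMM, by the median of ratios, by total counts, or by total counts without mitochondrial genes, settings chosen after seeing the data. The gap of Aplnr was narrowest with plain total counts, where its lowest CRE library was 1.22 times its highest CS7KO library.

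Levels can be compared between genes per length of the gene model. In CRE hearts Myct1 was highest at 22.8 ± 9.07 CPM per kilobase, followed by Aplnr at 9.14 ± 0.606, Hlx at 8.72 ± 3.82, Apln at 1.502 ± 0.729 and St8sia4 at 1.48 ± 0.526 (SD, n = 4). Neighbours in that order overlapped over the 4 libraries, except for Myct1 with Aplnr and for Hlx with Apln. In CS7KO hearts the order was the same, with 4.08 ± 1.01, 2.04 ± 0.907, 2.01 ± 0.335, 1.14 ± 0.751 and 0.351 ± 0.0587 CPM per kilobase. There the libraries of St8sia4 lay below those of Apln and every other pair of neighbours overlapped. This rests on the deposited length of 20091 bases for St8sia4, which joins all exons. With its longest M21 transcript of 10027 bases it came to 2.97 ± 1.05 CPM per kilobase in CRE and 0.703 ± 0.118 in CS7KO, and overlapped Apln in both.

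The libraries differed in ways that touch these values. Mitochondrially encoded genes took 15.04% to 69.8% of the counts in CRE and 20.2% to 24.9% in CS7KO, highest in CRE 3 and CRE 5, and total counts ran from 16476420 to 40181492. Genes with a count from 1 to 9 numbered only 537 in CRE 1, while each other library held 5848 to 19697 of them. CRE 3 and CRE 5 were also the only controls labelled female. Without them the log2 differences were -1.83 for Aplnr, -2.02 for Myct1, -1.84 for Hlx, -1.72 for St8sia4 and -0.85 for Apln. Without CRE 1 and CRE 5 they were -2.16, -2.17, -1.65, -2.19 and -0.04 in the same order. At these depths a count of 0 allows a level of up to 0.0643 to 0.363 CPM, which covers counting error only. This bound may not hold for CRE 1, where low counts were rare. The guidance gene Slit2 was at 0 in CRE 1 and at 5.33, 9.07 and 2.66 CPM in CRE 2, 3 and 5. Smad7, the deleted gene, had a CPM of 17.6, 25.5, 25.2 and 45.4 for CRE 1, 2, 3 and 5, against 19.8, 13.3, 27.8 and 12.3 for CS7KO 1 to 4, so its groups overlapped (log2 -0.59, SE 0.34, edgeR adjusted p = 0.509). Reads are counted over the whole gene and over every cell type of the heart, so this value checks little of the genotype labels. The sex labels went against the data: the Y-linked genes Ddx3y and Eif2s3y had at least 67.9 and 36.6 CPM in all 8 libraries, also in the 4 labelled female, and Xist had at most 1.03 CPM. The 10 cardiomyocyte markers, all measured, summed to between 20259 and 53248 CPM in CRE and between 42313 and 51424 CPM in CS7KO, which overlapped. Of these markers 7 had a log2 difference above 0, with a median of 0.71 and a highest value of 2.15 in Myh7, a myosin heavy chain. All CS7KO libraries lay above all CRE libraries in 2 of them (6.24% of all genes) and below them in 0 (4.11%). None passed edgeR, 2 had an unadjusted p under 0.05 (12.6% of all genes), DESeq2 called 3 (3.14%) and limma-voom 0 (0.0312%). Their part in the values of the vascular genes was not tested.

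How the 5 genes stood beside endothelial RNA was read from 20 general endothelial markers. Which cells expressed the 5 genes cannot be read from whole-heart RNA. The markers summed to between 2044 and 5184 CPM in CRE and between 1269 and 2618 CPM in CS7KO, which overlapped. By their mean log2 CPM the endothelial level was 6.30, 6.33, 7.38 and 7.70 for CRE 1, 2, 3 and 5, against 6.48, 5.85, 6.53 and 5.59 for CS7KO 1 to 4, so CRE 3 and CRE 5 were the libraries rich in endothelial RNA. Of the 20 markers 19 had a log2 difference below 0 (48.1% of all genes did), with a median of -0.84 against 0.03 over all genes tested. All CS7KO libraries lay below all CRE libraries in 3 of the 20 (4.11% of all genes) and above them in 1 (6.24%). None passed edgeR, 12 had an unadjusted p under 0.05 (12.6% of all genes did), DESeq2 called 5 (3.14%) and limma-voom called 0 (0.0312%). The log2 differences ran from -1.54 (SE 0.46, edgeR adjusted p = 0.291) in Ly6c1, a surface protein of capillary cells, to 0.78 (SE 0.33) in Vwf, the clotting factor stored by endothelium. Aplnr, Myct1, Hlx and St8sia4, at -2.03 to -2.40, thus had lower point estimates than every one of the 20 markers. Each interval overlapped those of several markers, such as Ly6c1, Tek, Tie1, Robo4, Erg and Kdr. The 4 genes were chosen for being low and the markers were not, so nothing is read from this order. Car4, a capillary marker outside the 20 that was chosen after its values were seen, had a log2 difference of -2.05 (SE 0.79, edgeR adjusted p = 0.342).

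The most abundant of the markers differed among themselves. Ly6c1 had a CPM of 472, 235, 760 and 878 for CRE 1, 2, 3 and 5, against 246, 120.2, 263 and 109 for CS7KO 1 to 4. Eng, a co-receptor of TGF-beta and BMP ligands, had a log2 difference of -0.46 (SE 0.32, edgeR adjusted p = 0.596), and Pecam1, the adhesion protein that marks endothelium, one of -0.21 (SE 0.41, edgeR adjusted p = 0.883).

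**Figure D2:**
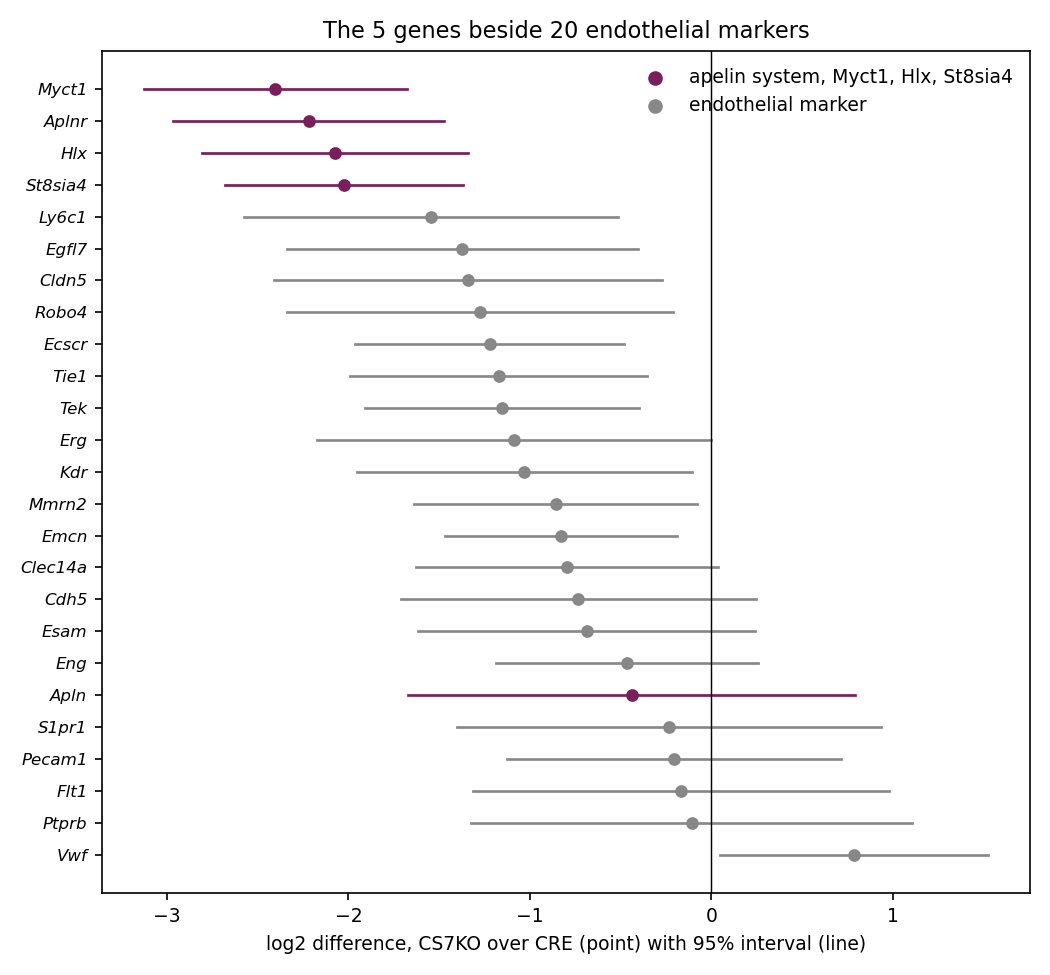
Log2 difference of CS7KO over CRE (horizontal axis) for the 5 genes (purple) and 20 endothelial markers (grey), with 95% intervals from edgeR as lines. Myct1, Aplnr, Hlx and St8sia4 lie left of all 20 markers, and Apln lies among them at -0.44.

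Set against the endothelial level of the same library, the differences of Aplnr, Myct1, Hlx and St8sia4 were smaller. The same marker mean is taken from every gene, so the order among the genes is fixed by construction. Minus the mean of the markers, the log2 CPM of Aplnr was -1.20, -1.39, -2.21 and -2.58 for CRE 1, 2, 3 and 5, against -3.64, -2.25, -4.56 and -2.74 for CS7KO 1 to 4. CS7KO 2 was thus above CRE 5, and the genotypes overlapped on this scale, at a difference of means of -1.45 log2 units, which ran from -1.80 to -1.03 with a library left out. They did not overlap once CRE 5 or CS7KO 2 was left out, but against Pecam1, Cdh5 and Kdr alone they still overlapped without CRE 5 (lowest CRE -3.02, highest CS7KO -2.88). The level of Aplnr relative to the markers was lowest in CRE 3 and CRE 5 among the controls, where the markers themselves were highest.

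For Myct1 the same measure was -0.57, -1.22, -1.03 and -1.19 for CRE 1, 2, 3 and 5, against -3.49, -1.97, -2.86 and -2.099 for CS7KO 1 to 4. Its libraries still separated by genotype, at a difference of -1.60 log2 units. Hlx and St8sia4 separated on this scale too, at differences of -1.22 and -1.20 log2 units. For Hlx the gap was small, with CRE 3 at -3.30 and CS7KO 4 at -3.37, and against Pecam1, Cdh5 and Kdr alone its groups overlapped, with CRE 3 at -4.11 and CS7KO 4 at -3.98. Myct1 and St8sia4 separated against those 3 markers and against the median of the 20 as well. Apln had a difference of 0.37 log2 units, with overlapping ranges of -6.21 to -3.92 in CRE and -4.82 to -3.70 in CS7KO, and it was -0.32 without CRE 3 and CRE 5. The part of endothelial RNA content in the differences of CPM was not tested.

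**Figure D3:**
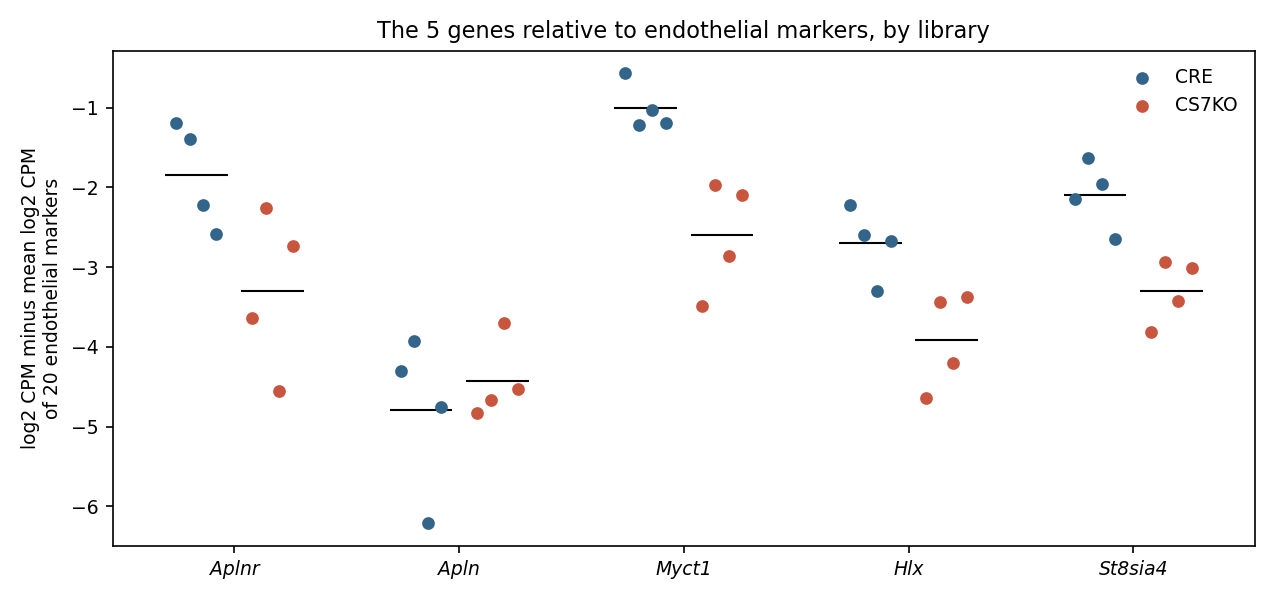
Log2 CPM of each gene minus the mean log2 CPM of 20 endothelial markers (vertical axis) in each CRE (blue) and CS7KO (red) library, with horizontal lines for group means. Myct1, Hlx and St8sia4 separate by genotype against the 20 markers, Hlx narrowly and not against Pecam1, Cdh5 and Kdr alone, while Aplnr and Apln overlap.

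Markers of finer vessel types differed among each other. Capillary markers, of which all 5 had a log2 difference below 0 (median -1.24), summed to between 265 and 1140 CPM in CRE and between 159 and 438 CPM in CS7KO. Arterial markers had 8 of 10 below 0 (median -0.76). Venous markers had 2 of 6 (median 0.28), lymphatic markers 1 of 7 (median 0.22) and endocardial markers 2 of 4 (median -0.05). Over all genes tested, 48.1% lay below 0. No marker of these 5 lists passed edgeR. Those with an unadjusted p under 0.05 numbered 2 capillary, 4 arterial, 0 venous, 1 lymphatic and 1 endocardial (12.6% of all genes reached it). DESeq2 called 1 arterial gene and no other (3.14% of all genes), while limma-voom called 0 (0.0312%).

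Blood cells, in which Hlx and St8sia4 are also known, were read from their own markers. The 6 B cell markers summed to between 24.8 and 35.4 CPM in CRE and between 6.40 and 20.6 CPM in CS7KO, which did not overlap. Of the 6, 5 had a log2 difference below 0 (48.1% of all genes). All CS7KO libraries lay below all CRE libraries in 1 of the 6 (4.11% of all genes). That also held for 1 marker each of T cells, dendritic cells and megakaryocytes. The B cell sum is 1 of many marker sums that were read. The 5 markers of megakaryocytes and platelets summed to between 18.4 and 48.4 CPM in CRE and 14.8 and 18.02 CPM in CS7KO, so these nearly touched. Both sums are given on the TMM scale alone, and whether they stay apart under other scalings is not shown. T cell markers (3.96 to 10.2 CPM against 2.70 to 6.05), dendritic cell markers (17.7 to 98.1 against 16.4 to 20.7), macrophage markers (531 to 2190 against 674 to 719), neutrophil markers (9.28 to 32.8 against 8.39 to 17.7) and NK cell markers (0.605 to 3.79 against 0.295 to 1.75) overlapped between CRE and CS7KO. None of these lists held a marker at 0 in all 8 libraries. No tested marker of these lists passed edgeR, DESeq2 or limma-voom, and no NK cell marker was tested. An unadjusted p under 0.05 was reached by 1 B cell, 1 megakaryocyte and 2 dendritic cell markers (12.6% of all genes reached it). Their part in the values of the 5 genes was not tested.

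Other cells of the vessel wall and the heart overlapped between CRE and CS7KO as well. Pericyte markers summed to between 666 and 1287 CPM in CRE and between 641 and 1101 CPM in CS7KO. Smooth muscle markers came to between 161 and 460 CPM and between 199 and 293 CPM. Fibroblast markers came to between 1227 and 4676 CPM and between 1607 and 3174 CPM.

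The genes around the apelin system and around the functions of Myct1, Hlx and St8sia4 were followed in 10 lists with 107 distinct tested genes. The lists were grouped by function, with earlier results of these data known. Some of their genes, such as Kdr, Flt1, Robo4 and Erg, are also general endothelial markers. The counts below therefore partly repeat those of the marker list. None of the 107 passed edgeR (smallest adjusted p = 0.243, against 3 genes lower and 3 higher, 0.0187% each, in the whole table). An unadjusted p under 0.05 was reached by 33 (12.6% of all genes reached it), of which 29 were lower in CS7KO. DESeq2 called 14, all lower (3.14% of all genes in either direction), and limma-voom called 0 (0.0312%). Of the 107, 76 had a log2 difference below 0 (48.1% of all genes) and 19 had all CS7KO libraries below all CRE libraries (4.11%), while 1 had the reverse (6.24%).

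Apela, the second ligand of Aplnr, was too low to test. It was at 0.319 CPM in CRE 3, 0.128 CPM in CS7KO 2 and 0.112 CPM in CS7KO 4 and had no count in the other 5 libraries. CRE 1, where low counts were rare, was among those without a count. The related angiotensin receptor gene Agtr1a averaged 13.7 ± 6.24 CPM over the CRE libraries and 24.7 ± 4.56 over those of CS7KO (SD, n = 4 each; log2 0.86, SE 0.37, edgeR adjusted p = 0.383). Agt, which encodes angiotensinogen, had a log2 difference of -0.52 (SE 0.56, edgeR adjusted p = 0.756).

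Enzymes that act on peptides of this kind did not all differ in 1 direction. Prep, a prolyl peptidase, averaged 19.6 ± 10.5 CPM over the CRE libraries and 38.3 ± 7.32 over those of CS7KO (SD, n = 4 each; log2 1.02, SE 0.33, edgeR adjusted p = 0.295). Furin, a convertase of the secretory pathway that can cut the apelin precursor, had a log2 difference of 0.75 (SE 0.31, adjusted p = 0.365) and Mme, neprilysin, one of -0.73 (SE 0.50, adjusted p = 0.586).

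Transducers of the receptor differed little. Arrb2, an arrestin, was at -0.52 (SE 0.29, edgeR adjusted p = 0.492), Gna13, a G protein subunit, at 0.31 (SE 0.27) and Gnai3, an inhibitory G protein subunit, at -0.38 (SE 0.33) as log2 differences, and the 8 tested genes had a median of -0.20. Among 9 downstream genes of endothelium the median log2 difference was -0.42. Klf2, a transcription factor of vessels under flow, averaged 186 ± 126 CPM over the CRE libraries and 70.7 ± 6.91 over those of CS7KO (SD, n = 4 each; log2 -1.17, SE 0.41, edgeR adjusted p = 0.311). Gja5, the connexin of arterial endothelium, stood at 14.8 ± 2.93 and 6.68 ± 1.90 CPM (log2 -1.15, SE 0.32, adjusted p = 0.291), and DESeq2 called it. Mef2c, a transcription factor of muscle and vessels, was at -0.46 (SE 0.28, edgeR adjusted p = 0.527).

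Genes of polysialic acid had 9 of 12 tested members below 0 and a median log2 difference of -0.23. Nrp2, a carrier of polysialic acid and a co-receptor of VEGF and semaphorins, averaged 44.6 ± 14.7 CPM over the CRE libraries and 25.4 ± 4.62 over those of CS7KO (SD, n = 4 each; log2 -0.78, SE 0.30, edgeR adjusted p = 0.339). Nans, which makes sialic acid, was at -0.63 (SE 0.34, adjusted p = 0.474), and the carrier Cadm1 at -1.001 (SE 0.55, adjusted p = 0.478). Neither of these passed in DESeq2 or limma-voom.

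Guidance genes of vessels, a group to which genes downstream of human HLX belong, had 11 of 18 members below 0 and a median log2 difference of -0.31. Sema6a, a transmembrane semaphorin, averaged 39.6 ± 18.5 CPM over the CRE libraries and 10.5 ± 2.28 over those of CS7KO (SD, n = 4 each; log2 -1.80, SE 0.37, edgeR adjusted p = 0.243). Nrp1, the semaphorin and VEGF co-receptor, stood at 129 ± 52.1 and 57.1 ± 4.97 CPM (log2 -1.14, SE 0.29, adjusted p = 0.280). Slit3, a secreted guidance ligand, lay the other way at 1.305 (SE 0.46, adjusted p = 0.312). DESeq2 called Sema6a and Nrp1.

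Endothelial transcription factors were the list with the lowest median, -1.11 over 23 tested genes, with 21 below 0 (48.1% of all genes). All CS7KO libraries lay below all CRE libraries in 10 of them (4.11% of all genes) and above them in 0 (6.24%). Tcf15, which with its partner Meox2 is known from the capillaries of the heart, averaged 36.9 ± 25.0 CPM over the CRE libraries and 6.04 ± 0.526 over those of CS7KO (SD, n = 4 each; log2 -2.46, SE 0.50, edgeR adjusted p = 0.243). Meox2 stood at 49.3 ± 31.4 and 13.1 ± 3.74 CPM (log2 -1.77, SE 0.39, adjusted p = 0.262), and Bcl6b, a repressor of endothelium, at 53.0 ± 37.6 and 14.5 ± 2.93 CPM (log2 -1.72, SE 0.41, adjusted p = 0.274). DESeq2 called 6 of the list, these 3 among them. Their spread over the CRE libraries was wide, with CRE 5 highest in all 3.

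Growth factor receptors of vessels and tip cell genes were the remaining lists, with the Myc family. Of 14 VEGF and angiopoietin genes 10 were below 0 (median log2 -0.40), with Tek at -1.15 (SE 0.34, edgeR adjusted p = 0.291) and Tie1 at -1.17 (SE 0.37, adjusted p = 0.295). Of 11 tip cell genes, the class of endothelial cell that makes apelin, 8 were below 0 (median log2 -0.59). Esm1, a proteoglycan of tip cells, averaged 8.33 ± 4.78 CPM over the CRE libraries and 0.739 ± 0.637 over those of CS7KO (SD, n = 4 each; log2 -3.46, SE 0.78, adjusted p = 0.262). Pdgfb, by which endothelium recruits pericytes, stood at 82.1 ± 36.5 and 26.5 ± 7.18 CPM (log2 -1.56, SE 0.34, adjusted p = 0.258), and Cd34 at 257 ± 18.6 and 118 ± 24.7 CPM (log2 -1.12, SE 0.27, adjusted p = 0.274). Myc family genes had a median of -0.19 over 10 tested genes, with Mycn at -1.79 (SE 0.71, adjusted p = 0.352), Myc at 1.93 (SE 0.98, adjusted p = 0.443) and Mxd3, an antagonist of Myc, at -1.72 (SE 0.88, adjusted p = 0.449).

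**Figure D4:**
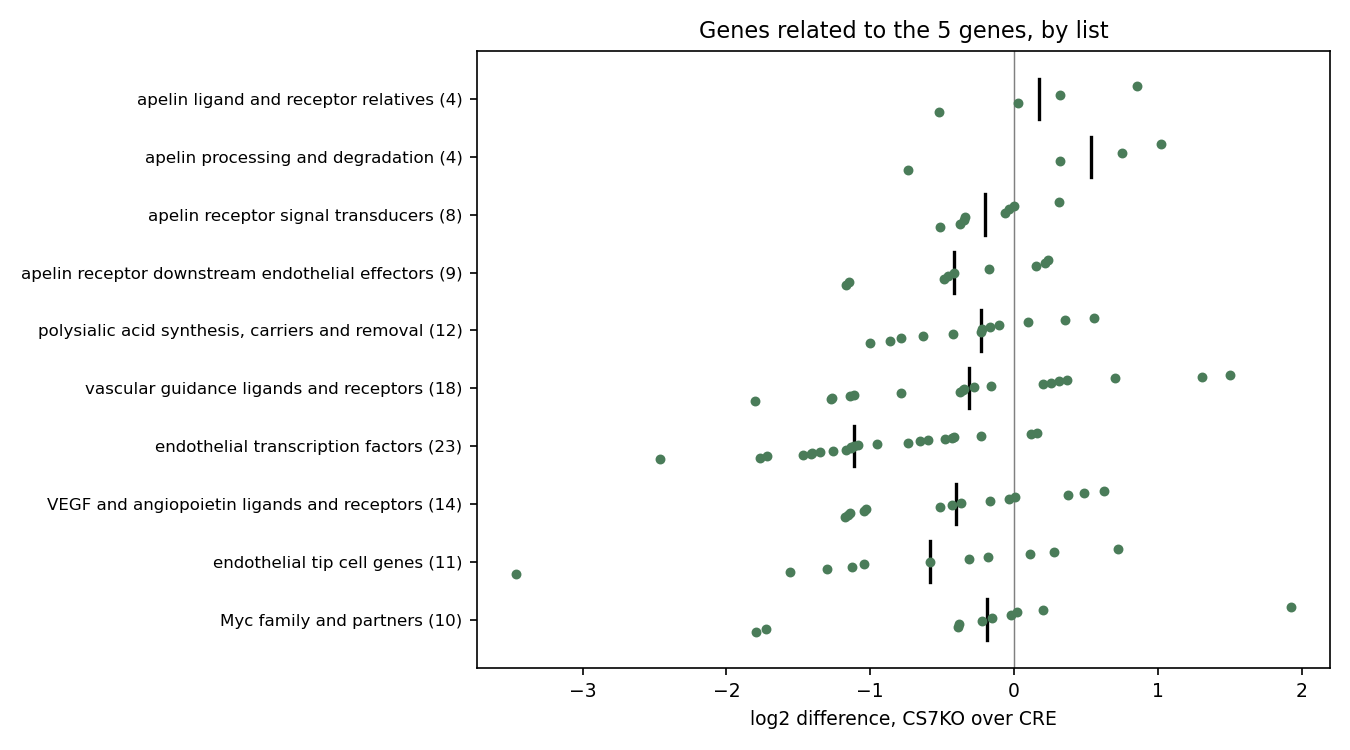
Log2 difference of CS7KO over CRE (horizontal axis) for each tested gene of 10 lists, with the number tested in brackets and a black bar at the list's median. Endothelial transcription factors have the lowest median at -1.11, and the medians of apelin relatives and apelin processing lie above 0.

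How the 5 genes varied within a genotype was read after subtracting each genotype's mean of log2 CPM. Over the 8 libraries, which share the same depth and scaling for every gene, the likeness (Pearson r) was highest between Myct1 and Hlx at 0.82, followed by Myct1 and St8sia4 at 0.60. Aplnr had little likeness to these, at 0.20 with Myct1, 0.11 with Hlx and -0.10 with St8sia4, and was at -0.67 with Apln. That last value leans on CS7KO 3, which had the lowest Aplnr (3.86 CPM) and its group's highest Apln (7.06 CPM). The value without CS7KO 3 is not shown. With the mean of the endothelial markers the values were 0.73 for St8sia4, 0.54 for Myct1, 0.50 for Hlx, 0.37 for Apln and -0.25 for Aplnr. These values describe 8 libraries and carry no test.

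Among 12696 other protein-coding genes with a mean of at least 1 CPM, those most like Aplnr in this sense were Galnt10, Bend6 and Zdhhc7 (r = 0.88, 0.88 and 0.87). Their genotype differences were near or above 0, at 0.06 (SE 0.25), 0.59 (SE 0.35) and 0.05 (SE 0.22) on the log2 scale. Nearest to Apln were Bhlhe40, Chp2 and Cerk (r = 0.97, 0.97 and 0.94). They stood at 0.11 (SE 0.30), -1.04 (SE 0.59) and 0.17 (SE 0.25). Nearest to Myct1 were Snai2, Ppcdc and Pask (r = 0.98 each), at -1.62 (SE 0.47), -0.28 (SE 0.30) and -0.51 (SE 0.93). Hlx was most like Trappc14, Hps1 and Pheta1 (r = 0.99 each), at -1.11 (SE 0.42), -0.10 (SE 0.37) and -0.82 (SE 0.34). St8sia4 was most like Slc4a1, Nxpe4 and Cyp2j6 (r = 0.98 each), at 0.54 (SE 1.19), -0.99 (SE 0.44) and -0.83 (SE 0.36). Slc4a1 was at 0 in its lowest CRE library. For each gene these are the highest of 12696 values over 8 libraries. Values of this size can come from that choice alone, so nothing is read from them.

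The labels allow 1 more contrast that the choice of genes did not use, between the 4 libraries labelled female and the 4 labelled male, though all 8 had Y-linked transcripts. In the CRE group the libraries labelled female were CRE 3 and CRE 5. They had 41.1% and 69.8% of counts from mitochondrially encoded genes, against 15.04% and 20.3% in CRE 1 and CRE 2. In the controls labelled sex therefore cannot be told apart from this library difference. None of the 5 genes passed edgeR's test over all genes. Myct1 was nearest, at 0.53 higher in the libraries labelled female on the log2 scale (95% interval -0.16 to 1.22, adjusted p = 0.823), and Aplnr was at -0.34 (95% interval -1.06 to 0.38, adjusted p = 0.823). Hlx was at 0.42 (95% interval -0.29 to 1.13), St8sia4 at 0.44 (-0.19 to 1.07) and Apln at 0.44 (-0.79 to 1.67). Over all genes tested, 0 of 16002 passed (0.0%), 427 had an unadjusted p under 0.05 (2.67%), and DESeq2 and limma-voom also called 0.

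Whether the genotype difference depended on the labelled sex was tested in a model with 4 groups of 2 libraries. The group of CRE labelled female was CRE 3 and CRE 5, so this contrast too cannot be told apart from their high mitochondrial share. The log2 difference of CS7KO over CRE in the libraries labelled female, minus that in those labelled male, was -0.92 for Aplnr (95% interval -2.23 to 0.39, edgeR adjusted p = 0.694) and -0.88 for Myct1 (-2.13 to 0.36, adjusted p = 0.691). St8sia4 was at -0.72 (adjusted p = 0.721), Hlx at -0.59 (adjusted p = 0.798) and Apln at 0.72 (-1.83 to 3.26, adjusted p = 0.868). The intervals are wide and include differences in both directions. Over all genes 0 passed edgeR (0.0%), 1133 had an unadjusted p under 0.05 (7.08%), DESeq2 called 44 (0.275%) and limma-voom 0.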

How the data were processed

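The values are unnormalized counts of reads, deposited by the authors in 1 table for 8 libraries of polyadenylated RNA, with identifiers, positions and gene lengths. HTSeq 0.6.1, TopHat2 2.0, CASAVA and Cufflinks 2.1.1 are listed, per the submitters' processing notes, with the builds mm10 and GRCm38.p6 and without their roles. Whether counting used strand is not stated. No batch is given in the labels, and replicates differed by far more than sampling noise (chi-square per degree of freedom at least 11.2), so none was merged.

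Genes were filtered by filterByExpr (minimum count 10, total 15), scaled by TMM and tested with robust quasi-likelihood fits in edgeR 4.0.16 (R 4.3.3), with genotype and labelled sex as terms and Benjamini-Hochberg adjustment over all genes. Each SE is the log2 difference over the root of its F. Log2 CPM used a prior count of 2. DESeq2 1.42.0 and limma-voom 3.58.1 were alternatives. Fits were tested on simulated counts. Sequences are from RefSeq.

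The 5 genes and the lists were chosen with earlier results of these data known. Related genes were named as the 3 with the smallest p in each list, marker lists by counts and sums with the 3 most abundant endothelial markers, and likeness by the 3 highest r. Other genes were named where they bound a range. A gene that this rule named is not reported here.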

Additional observations from a re-analysis of the deposited data

Results flagged for a closer look

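Among 22 groups of 4 libraries checked for a library far from the rest (the 5 genes and 6 vessel marker sums in each genotype), 1 stood out, and chance would flag about 1 in 20. The summed level of 4 endocardial markers was 105.7 CPM in CS7KO 3, above the other CS7KO libraries by most of the group's range, in the library with the lowest Aplnr and the highest Apln of the CS7KO hearts.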

How the results depend on the processing

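The log2 differences of Aplnr, Myct1, Hlx and St8sia4 moved by less than the spread between replicates under all 20 alternatives each. They ran from -2.48 to -1.97, -2.69 to -2.26, -2.26 to -1.77 and -2.15 to -1.85 with each library left out in turn, and from -2.48 to -1.65 over all 4 under the other settings. Apln ran from -0.97 to -0.10 with a library left out, was at -0.85 without CRE 3 and CRE 5 and at 0.02 with a replicate block. The count of genes that differed between the genotypes was 503 with DESeq2, 338 without a filter, 16 without CRE 1 and CRE 5, 3 without CRE 3 and CRE 5, 0 by edgeR among protein-coding genes alone (1854 at an unadjusted p under 0.05), and 3 to 14 with a library left out (14 without CRE 1, 3 without CS7KO 3), against 6. The replicate block on the 6 libraries numbered 1, 2 and 3 gave 9. Same-numbered libraries had r = 0.04, -0.09 and 0.35. The last, CRE 3 with CS7KO 3, was the highest of all 16 pairs, while CRE 1 was most like CS7KO 4, and the numbers were not taken as pairs because not every r was over 0.1. For labelled sex, 7 genes passed without a filter, and Apln ran from -0.10 to 0.77 with a library left out. The interaction gave 44 genes with DESeq2, 48 without a filter and 0 to 1476 with a library left out (1476 without CRE 2), with Apln from -0.47 to 2.07 and Hlx from -0.999 to 0.18. The cause of these changes was not tested. Apela rests on few reads. Counts of Apln ran from 36 in CS7KO 4 to 329 in CS7KO 3, and those of Hlx were as low as 82 in CS7KO 4. The part of depth in the spread of Apln was not tested.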
